A study of Mus musculus with 24 samples.

Results

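Wild type mouse embryonic fibroblasts kept in tunicamycin for 8 h were compared with wild type fibroblasts kept in it for 4 h, to see which parts of the early response went on, which reversed and which began only after 4 h. The comparison uses 8 of the 24 arrays of the series, 4 at 8 h and 4 at 4 h, each with a letter from A to D. They were chosen by the genotype and the time in their titles, and every probe set with a gene symbol was considered. Tunicamycin was given at 2 µg/ml to primary fibroblasts at passage 3, and total RNA was measured. Further groups are used for context: wild type cells left untreated, and CHOP-/- cells at 8 h and at 4 h, with 4 arrays each. All 24 arrays, those of untreated CHOP-/- cells among them, entered the fit that estimates the spread. CHOP, a stress-induced transcription factor of the C/EBP family, is the product of Ddit3. The labels give no strain, no time for the untreated cells and no group with solvent alone, so an effect of tunicamycin cannot be told apart here from an effect of time in culture. Nothing in them says that the 4 arrays of a group are separate cultures, so the p-values speak for the spread from array to array, which may be technical.

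The values are linear probe set signals whose trimmed means were set alike before deposit, at 250.1 to 250.2. With 4 arrays a group, it is their number that bounds the precision. Median signals of the 8 arrays lay between 48.2 and 72.6. The ratio of 3' to 5' signal for Gapdh was 0.79 to 0.83 at 8 h and 0.79 to 0.84 at 4 h. Fibroblast markers were strong, with Col1a1 between 5924 and 9229.7 and Thy1 between 2544 and 3967, but the Vim probe set gave only 8.4 to 28.2. Of other cell types, Epcam lay between 0.5 and 3.2 and Pecam1 between 4.8 and 23.9, but Cdh1, another epithelial marker, between 70.8 and 180.2. Summed signals of 13 skeletal and cardiac muscle markers were 2633 to 4446 at 8 h and 3574 to 5083 at 4 h. Those of 8 neural markers were 2452 to 3588 at 8 h and 2821 to 4375 at 4 h. Leukocyte markers were not at 0. The summed signal of 11 of them was 2412, 3871, 585.6 and 674 on the 8 h arrays A to D, against 2613, 4412, 673.5 and 817.5 on the 4 h arrays A to D. Arrays A and B therefore stood apart from C and D at both times, and at 2857, 4753, 690 and 1014 in untreated cells too. Fewer cells of a type and less RNA per cell cannot be told apart in such samples.

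Tunicamycin blocks the first step of N-linked glycosylation, so that glycoproteins misfold in the endoplasmic reticulum (ER). The unfolded protein response that follows is set off by the sensors PERK, IRE1 and ATF6. PERK phosphorylates eIF2α, which slows translation but favours ATF4 and, through it, CHOP. IRE1 splices Xbp1 mRNA, and ATF6 is cut in the Golgi apparatus and moves to the nucleus. Spliced XBP1 and ATF6 act on genes for chaperones, disulfide formation, ER-associated degradation and secretory transport.

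The ER stress response element (ERSE) is the motif that ATF6 binds together with NF-Y. It consists of CCAAT, 9 bases of any kind and CCACG, and was searched on both strands in the promoters of the RefSeq table for GRCm38.p6, from 250 bases before to 50 after each start site. It was found for 4 of the 98 genes with a promoter that rose between 4 h and 8 h, and for 11 of 4622 tested genes with a promoter, or 0.238%. Over all 27025 promoters in the table the share was 0.137%. The 4 windows are shown because these are folding genes whose rise is described next. Capitals mark the motif, which lies on the minus strand in Creld2 and Ero1b.
Creld2: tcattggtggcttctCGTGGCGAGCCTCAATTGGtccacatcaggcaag
Dnajc3: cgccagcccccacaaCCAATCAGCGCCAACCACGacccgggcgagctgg
Ero1b: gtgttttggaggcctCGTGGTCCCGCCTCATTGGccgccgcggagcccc
Pdia6: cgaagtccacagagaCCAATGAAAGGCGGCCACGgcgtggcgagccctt
They lie at chr15:88819505-88819553, chr14:118937812-118937860, chr13:12565667-12565715 and chr12:17266476-17266524, in the order of the lines and on the plus strand. The other tested genes with the motif, which did not pass the test between 4 h and 8 h, included Hspa5 and Hsp90b1. The shorter ERSE-II, which is ATTGG, 1 base of any kind and CCACG, was found for 7 tested genes, or 0.151%, among them Herpud1 and the rising genes Dnajb11 and Rcl1. A match describes the letters of the window and not the binding of a factor.

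Between 4 h and 8 h, 235 of 5691 genes changed, or 4.13% (limma across all genes, Benjamini-Hochberg adjusted p under 0.05, here referred to as called). Of these, 119 rose (2.09%) and 116 fell (2.04%), and 55 changed at least 2-fold. An unadjusted p under 0.05 in limma was found for 859 of the 5691. Counts of list members at that level, given below, are to be read against this. Log2 changes are of the signal plus 5.7, so weakly expressed genes changed by more than they show. The median over all genes was 0.01. For 204 of the 235 genes (3.58% of all tested) the 8 h and 4 h arrays did not overlap. That was so for 523 genes in all (9.19%), with 5.15% higher and 4.04% lower at 8 h. The residuals of arrays with the same letter went together in wild type cells. Between 8 h and 4 h, however, those of A and B went as closely with an array of another letter. A fit of the 12 wild type arrays with the letter as a replicate block called 640 genes, 305 higher (5.36%) and 335 lower (5.89%). Counts given below with the replicate block are to be read against these shares. The split depended on the scaling: 50.6% of called genes rose as reported, and 65.7% of 169 called genes when each array was centred on its median. The count was 142 without the 8 h array A, 108 without the 8 h array D and 139 without the 4 h array C. These fits estimate the spread over all groups of the series. With only the arrays of the 2 groups compared, 108 genes were called, 49 higher and 59 lower.

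Arrays A and B, with the higher leukocyte signals, and arrays C and D moved alike in the called genes. Against the 4 h array of the same letter, 118, 119, 119 and 119 of the 119 rising genes were higher on the 8 h arrays A to D. Of the 116 falling genes, 116, 115, 116 and 116 were lower. These genes were chosen on the same arrays, so the counts are a description. With arrays C and D alone of every group, the median log2 change of the rising genes was 0.69 and that of the falling genes −0.93. With arrays A and B alone, the medians were 0.61 and −0.82. With 2 arrays per group, few genes passed the test: 8 for C and D, and 43 for A and B. None of the 7 leukocyte markers tested was called by limma between 4 h and 8 h, and none had an unadjusted p under 0.05. Their SEs were 0.38 to 0.92 log2, against a median of 0.19 over all genes, so only large changes in them could have been called. In the blocked fit 1 of the 7 was called, Cd52, a leukocyte surface antigen, with a log2 difference of −0.72 (adjusted p = 0.0252). Its signals were 156, 274, 26.4 and 32.4 at 8 h, against 225, 633, 39.4 and 61.4 at 4 h, lower at 8 h within each letter.

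**Figure D1:**
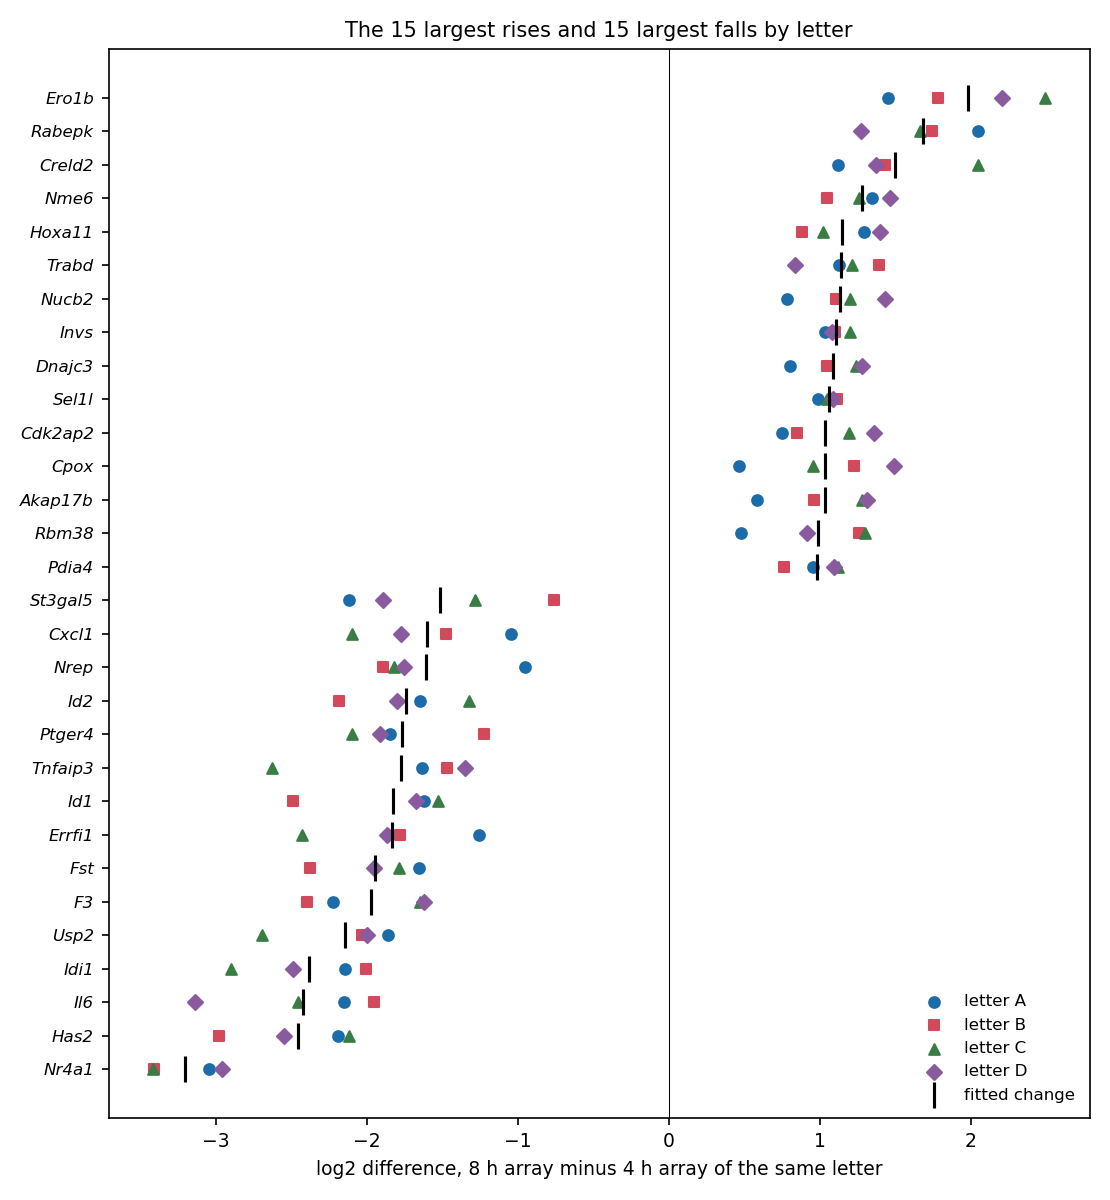
Log2 difference between the 8 h and the 4 h array of each letter (x axis) for the 15 genes with the largest rises and the 15 with the largest falls, all of them called and without overlap between times, with black bars for the fitted change. Every letter lies on the same side of 0 for all 30 genes, from Ero1b at the top, with a fitted 1.98, to Nr4a1 at the bottom, with −3.21.

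The genes fell into classes by how they stood at 4 h. In the comparison of 4 h with untreated cells 121 genes were called (2.13%), 102 of them higher (1.79%) and 19 lower (0.334%). Of the 121, 23 changed further in the same direction between 4 h and 8 h, 16 higher and 7 lower, and 2 changed in the opposite direction. Another 89 were called at 4 h and at 8 h against untreated cells but not between 4 h and 8 h, and 7 at 4 h only. Most genes called between 4 h and 8 h, 185 of 235, were not called at 4 h and differed from untreated cells in the same direction at 8 h, where 944 genes were called (16.6%; 9.65% higher and 6.94% lower). The last 25 differed only between 8 h and 4 h, 20 of them lower. The comparisons share arrays, so these classes are a description. A test of the change of pace, the later difference minus the earlier one, called 21 genes (0.369%), 3 with a larger (0.0527%) and 18 with a smaller value (0.316%) in the later interval, and 336 had an unadjusted p under 0.05. That count fell to 2 with arrays centred on their medians, and it was 13, 6 and 10 without the 4 h arrays A, B and D, so the calls of pace for single genes rest on this scaling and on these arrays. With the letter as a replicate block in wild type arrays it called 76, and the classes held 95, 24, 187 and 447 genes for going on, reversing, holding and beginning late. Without the block, 4 of the 185 genes that began late had a called change of pace, so for most of them a later start was not shown. Dnajb11 of that class, for example, changed by 0.51 log2 at 4 h and by 0.75 afterwards. The 89 holding genes numbered 44 without the untreated array A and 54 without the untreated array D.

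**Figure D2:**
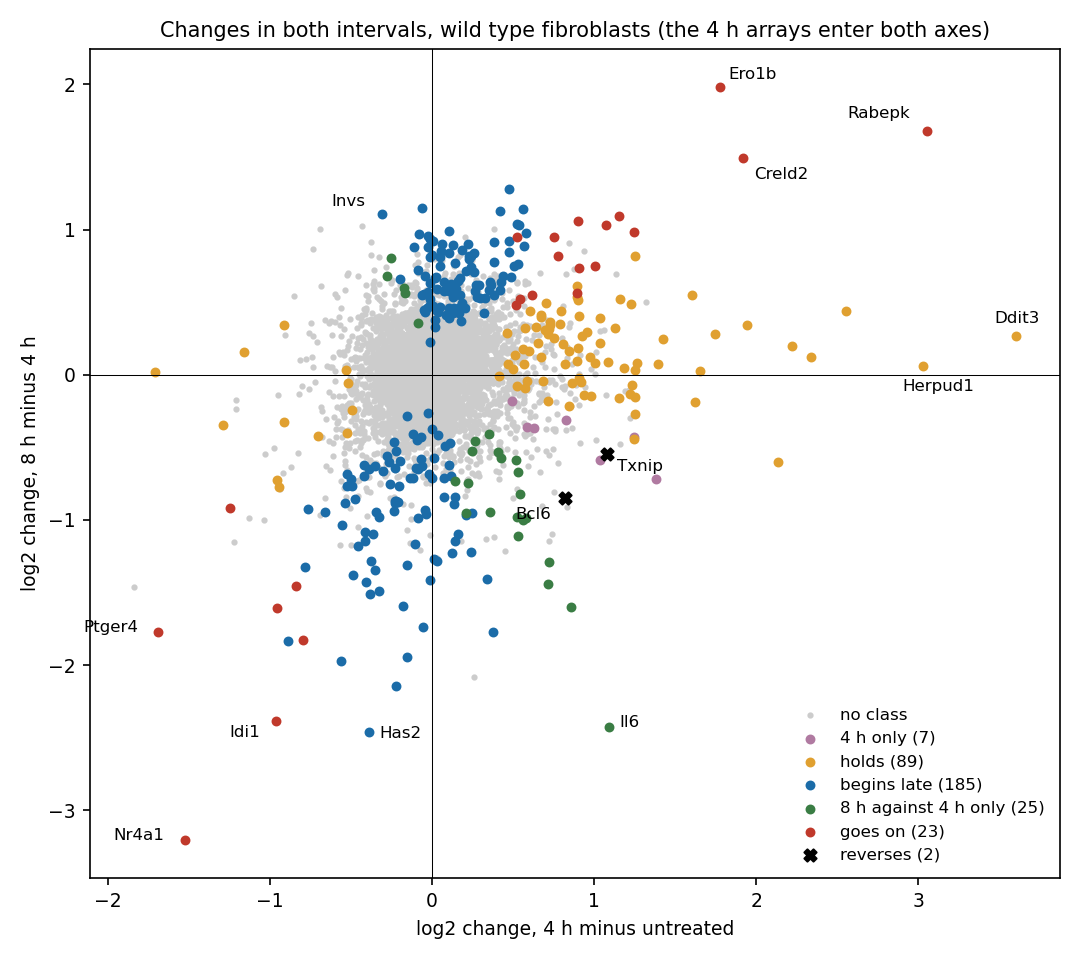
Log2 change of all genes tested between untreated cells and 4 h (x axis) and between 4 h and 8 h (y axis) in wild type cells, coloured by class. The 4 h arrays enter both axes with opposite signs, so the cloud has a built-in slope downwards. Ero1b, Rabepk and Creld2 lie far up and to the right, Herpud1 and Ddit3 far to the right near a y value of 0, and Il6 to the right and far down.

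**Figure D3:**
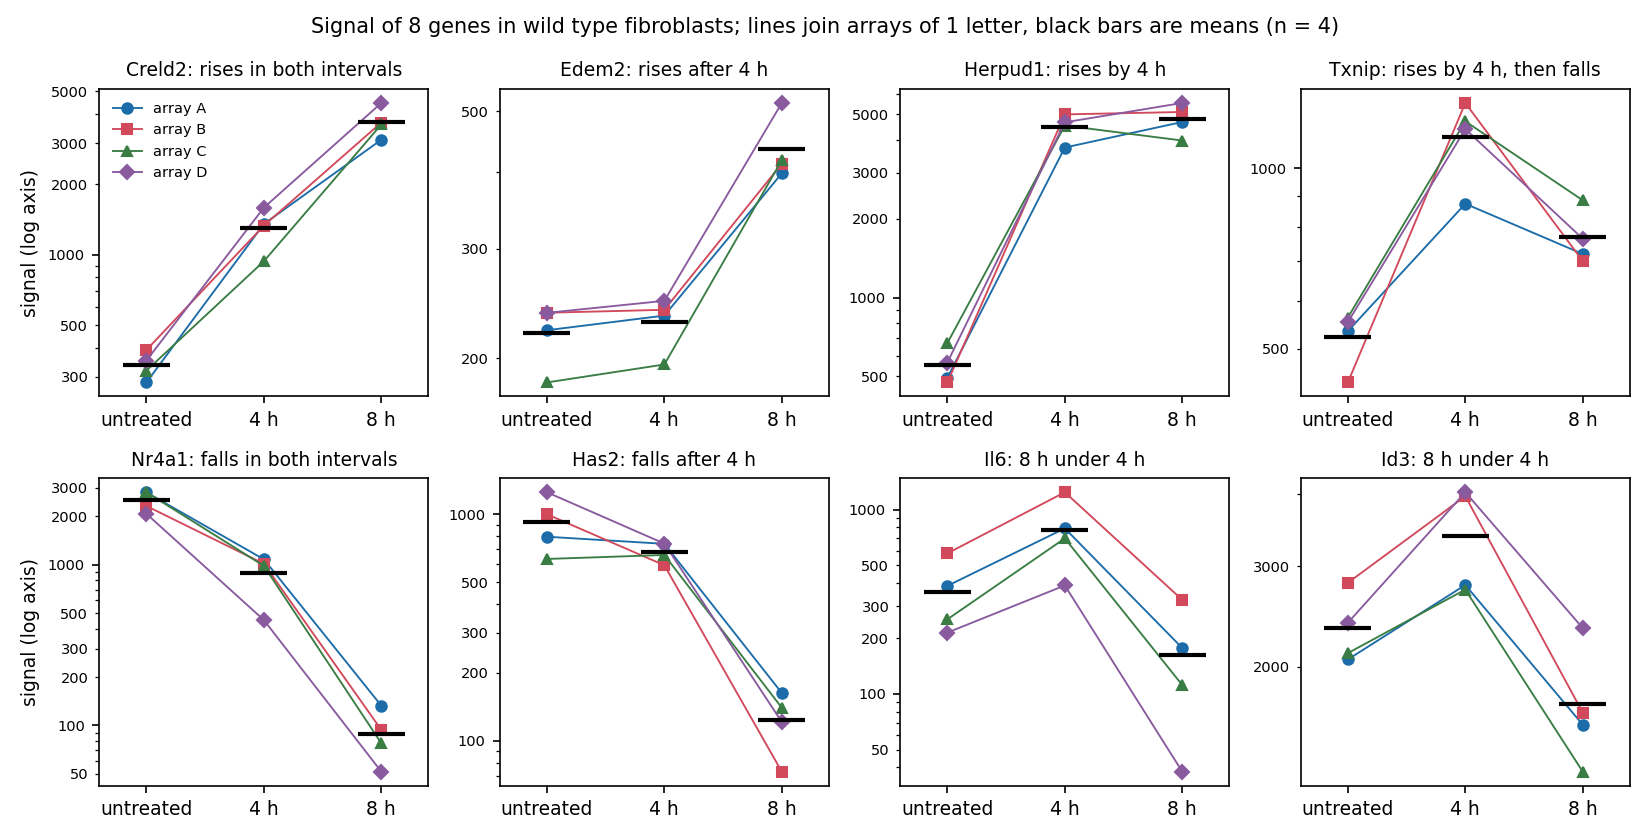
Signal (log axis) of 8 genes on the wild type arrays at each time, with lines joining arrays of the same letter and black bars at the means (n = 4). Creld2 was higher at each step and Edem2 only after 4 h, Herpud1 was already near its 8 h level at 4 h, and Txnip, Il6 and Id3 were highest at 4 h.

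Genes for folding and oxidation in the ER rose in the largest share of any list, 38.5%. Of 26 tested, 10 rose and none fell, against 2.09% and 2.04% of all genes, and the median log2 change was 0.50 against 0.01 for all genes. With the replicate block 17 rose. Ero1b, an ER oxidase that recharges protein disulfide isomerases, gave signals of 325, 502, 331 and 409 at 8 h, against 135, 145, 43.3 and 87.3 at 4 h. Every 8 h array exceeded every 4 h array, and the fitted rise was 1.98 log2 (SE 0.36, adjusted p = 0.00198). In untreated cells its signals were 21.5, 29.6, 18.9 and 24.6. Creld2, an ER protein with disulfide isomerase activity, gave 3108, 3682, 3612 and 4465 at 8 h, against 1355, 1333, 938 and 1592 at 4 h. The arrays did not overlap, and the rise was 1.49 log2 (SE 0.25, adjusted p = 0.00102). Dnajc3, which encodes the cochaperone and PERK inhibitor p58IPK, gave 2244, 2986, 2264 and 2616 at 8 h, against 1217, 1429, 984 and 1047 at 4 h, and rose by 1.09 log2 (SE 0.24, adjusted p = 0.0101). A pair of other Dnajc3 probe sets with signal above the filter also rose, one of them by 1.09.

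The disulfide isomerase genes followed. Pdia4 gave 3516, 3609.9, 2832 and 5451 at 8 h, against 1627, 2116, 1386 and 2318 at 4 h, and rose by 0.98 log2 (SE 0.19, adjusted p = 0.00361). Array D was the highest at both times, without overlap between the times. Pdia6 rose by 0.78 log2 (SE 0.22, adjusted p = 0.0434), with signals of 3823, 4261, 3064 and 5429.7 at 8 h, against 2049, 2692, 1698 and 2837 at 4 h; it lost its call in 12 of 27 other settings, and the adjusted p was 4.63e-05 with the replicate block. Fkbp11, a prolyl isomerase gene, rose by 0.84 log2, Dnajb11, a cochaperone of BiP, by 0.75, Manf by 0.56 and Erp44, which retains oxidases in the secretory pathway, by 0.54. Ero1a, the more widely expressed ER oxidase, gave 1347, 1402, 1501 and 1757 at 8 h, against 1005, 962, 846 and 1240.0 at 4 h. Its rise was 0.55 log2 (SE 0.15, adjusted p = 0.0333), and the call was lost in 10 of 27 other settings; a second probe set gave 0.73 (adjusted p = 0.167).

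The abundant chaperones were not called between 4 h and 8 h in the unblocked fit. Hspa5, which encodes BiP, the main ER chaperone of the Hsp70 class, gave 6224, 7017, 5879 and 6999.6 at 8 h, against 4638, 5875, 6173 and 5087 at 4 h, a difference of 0.18 log2 (SE 0.10, adjusted p = 0.433) with overlapping arrays. Hsp90b1, which encodes GRP94, gave 5334, 5992, 4697 and 6294 at 8 h, against 3696, 4389, 2802 and 3975 at 4 h. These arrays did not overlap, but the difference of 0.53 log2 (SE 0.19) had an adjusted p of 0.137. With the replicate block the adjusted p was 0.00743 for Hsp90b1 and 0.0494 for Hspa5.

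In ER-associated degradation, which returns misfolded proteins to the cytosol, 4 of 16 genes rose and none fell, with a median of 0.53, and 9 rose with the replicate block. Sel1l, the adaptor of the HRD1 ubiquitin ligase, gave 1100.5, 1101, 908 and 1094 at 8 h, against 561, 517, 419 and 512 at 4 h. It was higher on every 8 h array, by 1.06 log2 (SE 0.14, adjusted p = 6.05e-05), and a second probe set rose by 1.09. Edem2, a mannosidase family member that marks glycoproteins for disposal, gave 397, 412, 417 and 516 at 8 h, against 234, 239, 195 and 247 at 4 h, and rose by 0.92 log2 (SE 0.12, adjusted p = 4.31e-05). In untreated cells it gave 222, 237, 183 and 237, and its change of pace was called (0.91 log2, adjusted p = 0.0438), as for 3 rising genes in all. Edem1 rose by 0.64 log2 and Derl1 by 0.52, with calls lost in 10 of 27 and 9 of 27 other settings. Edem3, picked after its values were seen, was at 0.79 log2 and not called (adjusted p = 0.0771), but it was called with the replicate block (adjusted p = 0.0307).

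The machinery of ER entry and vesicle transport rose in part. Of 52 genes 9 rose, none fell and the median was 0.24; with the replicate block 18 rose. At 4 h against untreated cells 1 of the 52 had been called, against 2.13% of all genes. Without the block, the 21 genes with a called change of pace included no member of this list, so a later start was not shown. Sec23b, a coat subunit of vesicles that leave the ER, gave 1164, 1118, 1169.5 and 1587 at 8 h, against 654, 697, 512 and 765 at 4 h, and rose by 0.92 log2 (SE 0.13, adjusted p = 1.28e-04). A second Sec23b probe set with weak signal gave 0.22 (adjusted p = 0.943). Lman2, a cargo lectin, rose by 0.58 log2 (SE 0.10, adjusted p = 0.00171). Ssr1 and Ssr2, subunits of the translocon-associated complex, rose by 0.56 and 0.47 log2, Srp68 of the signal recognition particle by 0.42, its receptor subunit Srpr by 0.46, the signal peptidase subunit Sec11a by 0.43, and the SNARE genes Gosr2 and Stx5a by 0.47 and 0.48. The Srpr call was lost in 17 of 27 other settings.

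Genes of N-glycosylation and of the glycosylphosphatidylinositol anchor had 4 rises among 29, no fall and a median of 0.16, and 5 rises with the replicate block. Dpagt1 encodes the enzyme that tunicamycin inhibits. Its signals were 373, 417, 329 and 415 at 8 h, against 304, 266, 240.3 and 301 at 4 h. The arrays did not overlap, and the rise of 0.46 log2 (SE 0.13, adjusted p = 0.0433) lost its call in 15 of 27 other settings. Rpn1 and Ddost, subunits of the oligosaccharyltransferase, rose by 0.41 and 0.44 log2, and Gnpnat1, an enzyme of UDP-N-acetylglucosamine synthesis, by 0.62 log2 (SE 0.15, adjusted p = 0.0177). Piga, which starts the synthesis of the anchor, had already risen by 2.55 log2 at 4 h. Its signals were 791, 742, 904 and 951 at 8 h, against 669, 605, 609.7 and 586 at 4 h, a difference of 0.44 log2 that was not called (adjusted p = 0.116).

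Genes of the PERK and ATF4 arm had 3 rises among 23 and a median of 0.24. Stc2, a secreted glycoprotein gene, rose by 0.82 log2 (SE 0.20, adjusted p = 0.0188), Aldh18a1 of proline synthesis by 0.64 log2 and Bcat1, a branched-chain aminotransferase, by 0.46. With the replicate block 6 rose and 2 fell. Of 20 aminoacyl-tRNA synthetase genes 2 rose, 19 had a difference above 0 and the median was 0.30; with the replicate block 7 rose. Wars, for tryptophan, gave 1766, 2065, 1543 and 1951 at 8 h, against 958, 839.5, 855 and 1069.8 at 4 h, and rose by 0.95 log2 (SE 0.13, adjusted p = 7.36e-05), and a second probe set with strong signal rose by 1.01. A weaker Wars probe set gave 0.40 (adjusted p = 0.513). Lars, for leucine, rose by 0.53 log2. Among 11 amino acid transporters Slc7a3, a cationic amino acid transporter, rose by 0.83 log2 (SE 0.20, adjusted p = 0.0177), and 5 rose with the replicate block.

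Several of the strongest early genes had risen by 4 h and were not called afterwards. Ddit3 gave 3857, 4782, 4009.9 and 4883 at 8 h, against 2774, 4397, 3379.7 and 4059 at 4 h, with overlapping arrays, a difference of 0.27 log2 (SE 0.35, adjusted p = 0.836). Its change at 4 h had been 3.60 log2. Herpud1, which serves ER-associated degradation, gave 4681, 5111, 3976 and 5532 at 8 h, against 3739, 5004, 4536 and 4667 at 4 h, a difference of 0.06 log2 (SE 0.11, adjusted p = 0.885) after 3.03 at 4 h. For both genes the change of pace itself was called, with −3.33 log2 (adjusted p = 0.00953) and −2.96 log2 (adjusted p = 2.62e-10). The same held for Atf4, with −0.93 (adjusted p = 0.00953), for Gadd45a, a growth arrest gene, with −2.21 (0.00953), and for Piga, with −2.11 (1.01e-04). The other 5 holding genes with a called change of pace, picked after their values were seen, were Siah2, Nfil3, Zfp110, Zfp105 and Arntl. No holding gene had a called change of pace in the opposite direction, but the class requires a call at 4 h and none afterwards. The 4 h arrays enter both differences, so the definition favours this sign.

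The other stress genes fixed by name were not called between 4 h and 8 h without the block, nor was their change of pace. Ppp1r15a, which encodes the eIF2α phosphatase subunit GADD34, differed by 0.28 log2 (adjusted p = 0.572), with a change of pace of −1.46 (adjusted p = 0.0657; 0.0155 with the replicate block). Trib3, whose pseudokinase restrains ATF4 activity, differed by 0.34 (0.63), and Asns, an asparagine synthetase, by 0.21 (0.257). Dnajb9, an ER cochaperone gene, differed by 0.55 (0.197, and 0.0461 with the replicate block), and its other probe set by 1.53 (0.0648). Xbp1 differed by −0.18 (0.59), and Atf3, a stress-induced ATF family gene whose 4 h array C stood at 1274 and the others between 402.9 and 508.3, by −0.47 (0.804). The values in brackets are adjusted p-values from limma. Snhg5, a snoRNA host gene, and P2ry2, a nucleotide receptor gene, had the next largest early rises among the holding genes and differed by 0.20 and −0.60 log2 with adjusted p of 0.91 and 0.658. The 12 genes that fell early and held were led by Adm, which encodes the peptide adrenomedullin, with a log2 change of −1.71 at 4 h and 0.02 afterwards (adjusted p = 0.986), and included St6gal1, a sialyltransferase gene, with −1.29 and −0.35 (0.447), Nr2f1, with −1.16 and 0.16 (0.885), and Elovl6, a fatty acid elongase gene, with −0.95 and −0.73 (0.0761; 0.0234 with the replicate block).

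Among the 15 largest rises were several genes outside these groups. Rabepk, which encodes a Rab9 effector with kelch repeats, gave 383, 451, 540.5 and 374 at 8 h, against 107, 132, 146 and 154 at 4 h, and rose by 1.68 log2 (SE 0.28, adjusted p = 0.00102), without overlap. Nme6, of the nucleoside diphosphate kinase family, gave 541, 535, 508 and 540.5 at 8 h, against 230.1, 264, 189.8 and 198 at 4 h, and rose by 1.28 log2 (SE 0.16, adjusted p = 3.21e-05). Nucb2, a calcium-binding protein gene, rose by 1.13 log2, Cdk2ap2 by 1.04, Cpox of haem synthesis by 1.03, Trabd by 1.14, Akap17b by 1.03 and Rbm38, an RNA-binding protein gene, by 0.99. Invs, which encodes the ciliary protein inversin, rose by 1.10 log2 (SE 0.16, adjusted p = 1.86e-04) after no call at 4 h, and its change of pace was called (1.42 log2, adjusted p = 0.0188). Agap1 had the remaining called change of pace among rising genes (0.99, adjusted p = 0.0489), but while its main probe set rose by 0.88 log2 a weaker one gave −0.05, and with the replicate block the pace had an adjusted p of 0.0521. Hoxa11, a homeobox gene, rose by 1.15 and was not called in 10 of 27 other settings.

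A haem oxygenase, an autophagy receptor and a carbonic anhydrase also rose. Hmox1, which breaks down haem, gave 2692, 2493, 2292 and 3020.0 at 8 h, against 1135, 1357, 1692 and 1899 at 4 h, and rose by 0.77 log2 (SE 0.15, adjusted p = 0.00396). Sqstm1, the autophagy receptor p62, gave 3929.8, 3921, 3021 and 3937 at 8 h, against 2220.3, 2484, 2667 and 2765 at 4 h. It rose by 0.53 log2 (SE 0.11, adjusted p = 0.0054). These were the called members among 26 NRF2 antioxidant genes, whose median of −0.03 changed sign between settings; with the replicate block 3 rose. Car6, a secreted carbonic anhydrase, lay below the filter on average and was tested only without it. Its signals were 114.3, 83.9, 113.4 and 147.6 at 8 h, against 25.5, 23.2, 29.8 and 22 at 4 h, and 3 of those at 4 h were below the filter limit of 27.7. It was at least 3.75-fold higher at 8 h, with the dim arrays set at that limit (adjusted p = 5.18e-04 in the fit without the filter).

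Falling genes were led by the immediate-early group, whose members are induced by serum and growth factor signals. Of 35 tested, 10 fell and none rose, 34 had a difference below 0, and the median was −0.54 against 0.01 for all genes. With the replicate block 21 fell. Fos, Jun, Junb and Egr1, named after their values were seen, differed by −1.46, −0.54, −0.68 and −0.96 log2. They were not called (adjusted p = 0.277, 0.287, 0.214 and 0.31). With the replicate block their adjusted p was 0.011, 0.0117, 0.00584 and 0.0556. Nr4a1, an orphan nuclear receptor, had the largest fall of all genes tested, with 133, 93.9, 77.5 and 51.6 at 8 h, against 1079, 1012, 983 and 452 at 4 h. In untreated cells its signals were 2813, 2316, 2819 and 2071, so it was lower at each step, and the fall after 4 h was 3.21 log2 (SE 0.38, adjusted p = 2.01e-05). Id1, an inhibitor of basic helix-loop-helix factors, gave 233, 177, 341 and 303 at 8 h, against 719.5, 968, 1009 and 979 at 4 h, and fell by 1.83 log2 (SE 0.19, adjusted p = 2.19e-06), after a fall at 4 h of 0.80. Id2 gave 234, 208, 284 and 216 at 8 h, against 728, 923, 726 and 766 at 4 h, and fell by 1.74 log2 (SE 0.28, adjusted p = 6.76e-04), without a call at 4 h. Errfi1, a feedback inhibitor of the EGF receptor, fell by 1.83 log2 (SE 0.42, adjusted p = 0.0138), and a second probe set gave −1.67. Klf10 and Klf6, Krüppel-like factor genes, fell by 1.10 and 0.87 log2, and Ier3, an early response gene, by 0.71.

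Cytokine and NF-κB genes had 5 falls and no rise among 30, with a median of −0.29, and 9 falls and 1 rise with the replicate block. Of the 5, Ptgs2 is also counted among the immediate-early falls. Il6, an inflammatory cytokine, gave 178, 324, 112 and 37.9 at 8 h, against 791, 1242, 698 and 388 at 4 h. The arrays did not overlap and the fall was 2.42 log2 (SE 0.50, adjusted p = 0.00652). At 8 h it was highest on array B and lowest on array D, an order that the 4 h arrays shared. Cxcl1, a neutrophil chemoattractant, gave 887, 1090.0, 939.6 and 675 at 8 h, against 1663, 3099, 4308 and 2346 at 4 h, a fall of 1.60 log2 (SE 0.35, adjusted p = 0.0101) with no overlap. Tnfaip3, which encodes the NF-κB inhibitor A20, fell by 1.77 log2 (SE 0.36, adjusted p = 0.00501), Ptgs2, the inducible cyclooxygenase, by 1.27 log2 (SE 0.19, adjusted p = 2.76e-04) and Nfkbia, an inhibitor of NF-κB, by 0.94 log2, a call lost in 14 of 27 other settings. These genes are expressed by leukocytes as well as by fibroblasts. The summed leukocyte markers were lower on each 8 h array than on the 4 h array of its letter. With arrays C and D alone the log2 changes were −2.80 for Il6 and −1.94 for Cxcl1. On those arrays the sums were lower than on A and B but not absent, at 585.6 and 674 at 8 h and 673.5 and 817.5 at 4 h. A part of leukocytes in these falls was not tested.

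Cholesterol synthesis and uptake genes had a median of −0.53 among 18 tested, with 3 falls, 1 rise and 7 falls with the replicate block. Idi1, which isomerises isopentenyl diphosphate, gave 88.8, 128, 68.7 and 69.2 at 8 h, against 434, 519.9, 619 and 432 at 4 h, and fell by 2.38 log2 (SE 0.23, adjusted p = 2.19e-06). It had already fallen by 0.97 at 4 h. Sqle, the squalene epoxidase, fell by 0.76 log2 (SE 0.14, adjusted p = 0.00325) and Msmo1, a sterol demethylase, by 0.95 log2 (SE 0.25, adjusted p = 0.0316). Hmgcs1, called lower at 4 h by 0.95, differed by −0.77 after 4 h (adjusted p = 0.0844; 0.00225 with the replicate block). Mvd, the mevalonate diphosphate decarboxylase, went against the group. It gave 371, 463, 429.6 and 528 at 8 h, against 176, 257, 223 and 261 at 4 h, and rose by 0.97 log2 (SE 0.19, adjusted p = 0.00338).

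Extracellular matrix genes fell in 7 of 61 cases and rose in none, with a median of −0.15; with the replicate block 10 fell and 1 rose, Mmp11, a secreted metalloproteinase. Nid1, a basement membrane protein, gave 59.8, 44.1, 32.9 and 43.7 at 8 h, against 170.3, 112, 63.4 and 97.4 at 4 h, and fell by 1.09 log2 (SE 0.22, adjusted p = 0.00567). Timp3, a metalloproteinase inhibitor, fell by 0.98 log2 (SE 0.21, adjusted p = 0.00967), Mfap2 by 0.68 log2, Fbln2 by 0.63 and the membrane metalloproteinase Mmp14 by 0.56. Ccn1 and Ccn2, matricellular targets of YAP and serum response factor, fell by 0.71 and 0.26; Ccn1 also stands in the immediate-early list. The calls of Mfap2 and Fbln2 ended in 11 of 27 and 12 of 27 other settings. Has2, which makes hyaluronan, gave 162, 73, 139.8 and 121 at 8 h, against 740.1, 595, 661 and 742 at 4 h, and fell by 2.46 log2 (SE 0.25, adjusted p = 2.19e-06). Its signals in untreated cells were 796, 999.9, 635 and 1251. It was not called at 4 h, and of the 87 falling genes that began late it alone had a called change of pace (−2.07 log2, adjusted p = 0.0319). One fibroblast marker of 15, S100a4, was called, with a fall of 0.65 log2 that lost its call in 13 of 27 other settings, and 3 fell with the replicate block.

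Other falling genes included some that encode receptors, secreted factors and enzymes. F3, tissue factor, gave 528, 313, 722 and 378 at 8 h, against 2213, 1669, 2378 and 1168 at 4 h, and fell by 1.97 log2 (SE 0.38, adjusted p = 0.00361). Fst, the activin-binding protein follistatin, gave 139.5, 91, 213 and 146 at 8 h, against 467, 483, 754 and 575 at 4 h, and fell by 1.94 log2 (SE 0.26, adjusted p = 7.14e-05). Usp2, a deubiquitinase, gave 10.2, 14.9, 9 and 12.7 at 8 h, against 70.2, 74.4, 89 and 69.7 at 4 h. None of the 4 arrays at 8 h reached the filter limit of 27.7, so it was at least 2.66-fold lower (fitted adjusted p = 5.93e-05), and a second probe set also fell. Ptger4, a prostaglandin E2 receptor, fell in both intervals, with log2 changes of −1.77 after 4 h and −1.69 before. So did Nrep, with −1.61 and −0.96, and Synpo, an actin-binding protein gene, with −1.46 and −0.84. St3gal5, the GM3 ganglioside synthase, fell by 1.51. Flt1, the only endothelial marker tested, fell by 0.95 log2 (SE 0.21, adjusted p = 0.0109); its other probe set gave −0.48 (adjusted p = 0.368). The summed signal of 7 endothelial markers was 127.1 to 166.5 at 8 h, against 186.1 to 282.2 at 4 h, with 6 of the 7 under the filter's signal on all of these arrays. Its part in the fall of Flt1 was not tested.

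Only 2 genes passed the test in both intervals with opposite signs. Txnip, the thioredoxin-interacting protein, gave 719.8, 700.4, 885 and 763 at 8 h, against 873, 1287, 1199 and 1164 at 4 h. In untreated cells it gave 535, 439, 564 and 554. It rose by 1.08 log2 at 4 h, and fell by 0.55 log2 (SE 0.13, adjusted p = 0.0223) afterwards, and at 8 h it was still 0.53 above untreated cells. A second probe set with weak signal gave −0.06 after 4 h, and the fall was not called in 10 of 27 other settings. Bcl6, a transcriptional repressor, gave 124, 176, 152 and 90.0 at 8 h, against 349.7, 238, 227 and 186 at 4 h. It rose by 0.82 at 4 h, and fell by 0.85 log2 (SE 0.21, adjusted p = 0.0244) afterwards, and at 8 h it differed from untreated cells by −0.03; the fall was not called in 8 of 27 other settings. For both genes the change of pace was called, with adjusted p of 7.76e-04 for Txnip and 0.0447 for Bcl6. They were chosen for opposite calls in the 2 intervals on the same arrays, so this largely follows from the choice.

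Among the 20 genes that were lower at 8 h than at 4 h without a call against untreated cells, 4 had a called change of pace; they are named because of it, after their values were seen. Id3 gave 1585, 1664, 1312 and 2337 at 8 h, against 2779.9, 3973, 2729 and 4036 at 4 h, with untreated signals of 2060.3, 2804, 2114 and 2388. It fell by 1 log2 unit (SE 0.17, adjusted p = 0.00105), with a change of pace of −1.56 (adjusted p = 0.0117). Hivep2, a zinc finger factor gene, fell by 1.29 log2 (SE 0.25, adjusted p = 0.00396), Sipa1l2 by 0.82 log2 (SE 0.16, adjusted p = 0.00396) and Smad1, a mediator of BMP signals, by 0.67 log2 (SE 0.14, adjusted p = 0.00873). Il6 and Cxcl1 stood in the same class, with changes of pace of −3.51 and −2.45 that were not called without the block (adjusted p = 0.1 and 0.1) and were called with it (4.06e-04 for Il6 and 0.0038 for Cxcl1). Bcl2l11, which encodes the proapoptotic protein BIM and has been reported as a CHOP target, belonged here too. Its signals were 298, 323, 235 and 212 at 8 h, against 406, 420.0, 435 and 340.2 at 4 h, and it fell by 0.59 log2 (SE 0.16, adjusted p = 0.0391), and was not called in 11 of 27 other settings; a second probe set above the filter gave −0.18 (adjusted p = 0.903). Its change of pace had an adjusted p of 0.11, and of 0.0229 with the replicate block. Of 28 genes of the BCL2 family and cell death it was called with Bcl10, which fell by 0.47 log2, and none rose; with the replicate block 3 fell and 1 rose. Of 6 reported CHOP-dependent genes it was called with Ero1a, which rose; with the replicate block 2 rose and 1 fell.

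**Figure D4:**
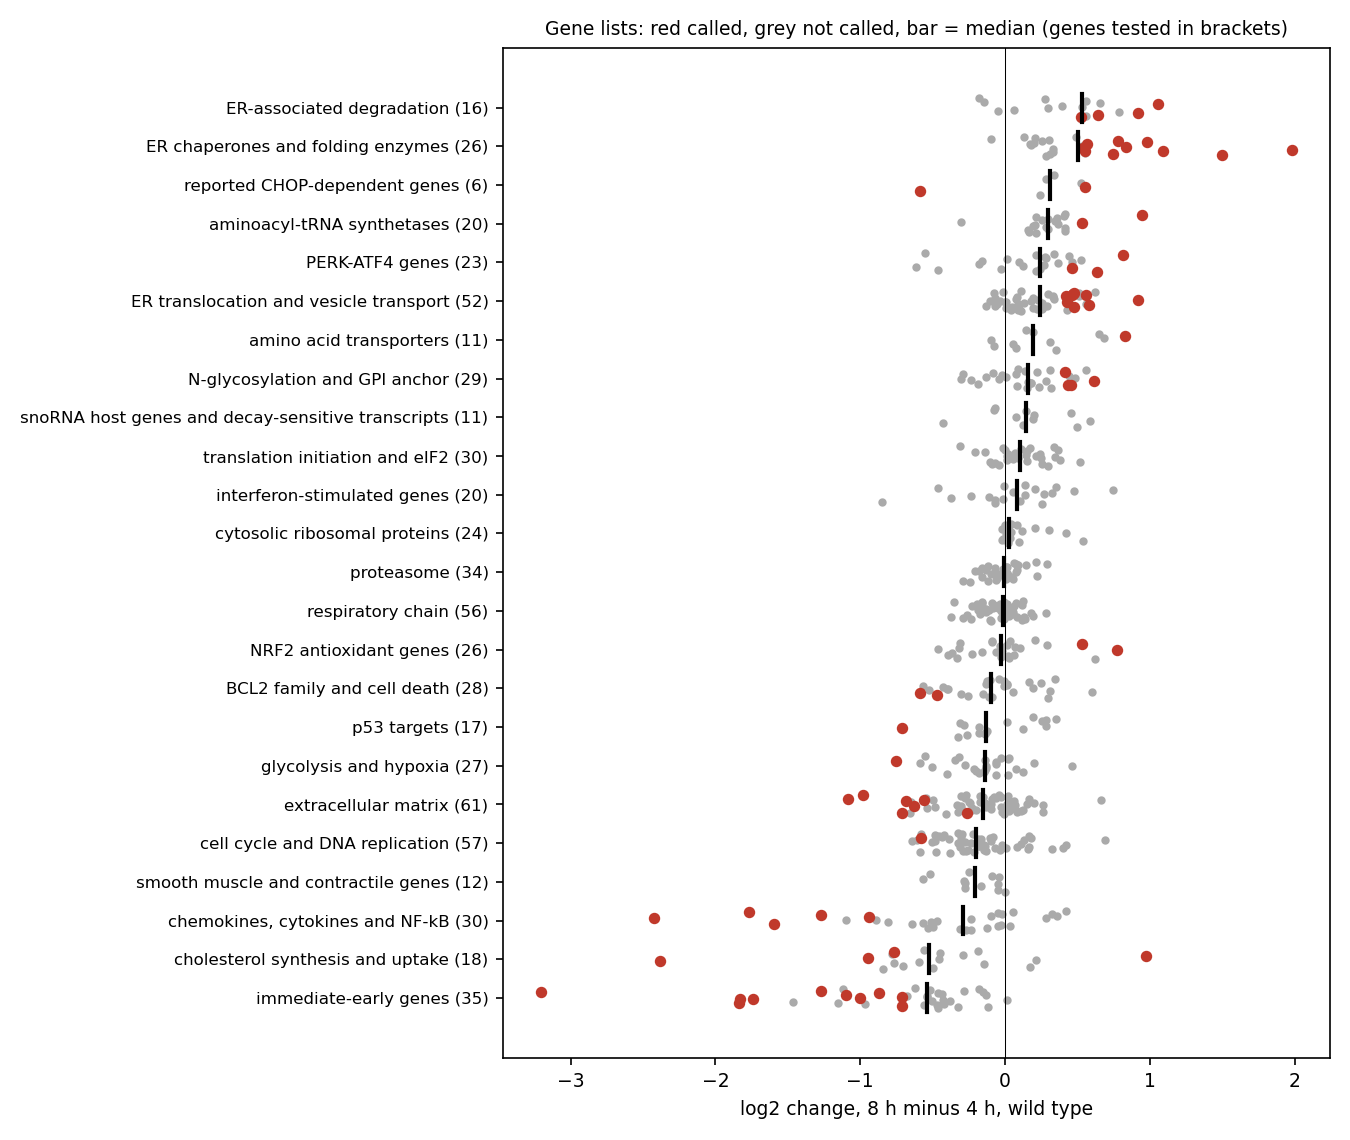
Log2 change between 4 h and 8 h (x axis) of every tested member of 24 gene lists, with red for called genes, grey for others and a black bar at the list's median. Lists of ER folding, degradation and transport have red points only to the right of 0, and immediate-early, cytokine and matrix lists only to the left.

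Housekeeping groups gave few calls. None of 34 proteasome genes, 24 cytosolic ribosomal protein genes, 56 respiratory chain genes and 30 translation initiation genes was called by limma between 4 h and 8 h. Of these, 0, 2, 2 and 3 had an unadjusted p under 0.05, against 859 of 5691 over all genes. The medians were −0.01, 0.02, −0.02 and 0.10, of which the first and the third changed sign between settings. The blocked fit called 0, 1, 0 and 2, all higher. None of 20 interferon-stimulated genes was called either, with 1 at an unadjusted p under 0.05; with the replicate block Isg15 was called higher. Of 12 smooth muscle, 10 skeletal and cardiac muscle and 4 neural genes none was called, with 1, 0 and 1 at an unadjusted p under 0.05; with the replicate block 2, 1 and 1 were called, all lower. Of 57 cell cycle and replication genes, Prim2, a primase subunit, fell by 0.58 log2, a call lost in 14 of 26 other settings; 12 of the 57 had a difference above 0, the median was −0.20, and 12 fell and 2 rose with the replicate block. Of 27 glycolysis and hypoxia genes Pfkm, the muscle phosphofructokinase, fell by 0.75, a call lost in 12 of 27 other settings, and 6 fell with the replicate block. Of 17 p53 targets Ier3 was called, and 3 fell with the replicate block.

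CHOP-/- fibroblasts give an independent set of arrays for the same interval. There 316 genes were called between 4 h and 8 h (5.55%), 195 higher (3.43%) and 121 lower (2.13%). Of the 235 genes called in wild type cells, 228 had the same sign in CHOP-/- cells (97.0%), against 67.2% of all genes, and 114 were also called there with that sign, against 5.29% of all genes. None was called in the opposite direction. The median of the rising genes was 0.67 in wild type and 0.50 in CHOP-/- cells, and that of the falling genes −0.89 in wild type and −0.61 in CHOP-/- cells; the genes were chosen in wild type cells, which favours the larger values there. Creld2 rose by 2.00 log2 in CHOP-/- cells, Ero1b by 2.77 and Sel1l by 1.13, and Nr4a1 fell by 3.38 and Has2 by 1.45.

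No gene passed the test of the difference between genotypes in this interval by limma, nor in any of the 25 other settings that could fit it. Of the 5691 genes 250 had an unadjusted p under 0.05, no more than chance alone would give. The median SE of this difference was 0.27 log2, against 0.19 for a single comparison, which limits the differences between genotypes that these arrays could show. The smallest unadjusted p belonged to Vcam1, an adhesion molecule gene named for that p, which changed by 0.75 log2 more in wild type than in CHOP-/- cells (SE 0.18, unadjusted p = 2.66e-04, adjusted p = 1). Ero1a rose in wild type cells and gave 0.49 log2 in CHOP-/- cells (adjusted p = 0.0516), a difference of 0.06 (SE 0.21, adjusted p = 1). Sqstm1 gave 0.06 in CHOP-/- cells, a difference of 0.47 (SE 0.15, adjusted p = 1). Of the 7 genes with opposite signs in the genotypes, the widest apart was C77080, also named after its values were seen, with −1.16 in wild type and 0.37 in CHOP-/- cells (adjusted p of the difference = 1).

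**Figure D5:**
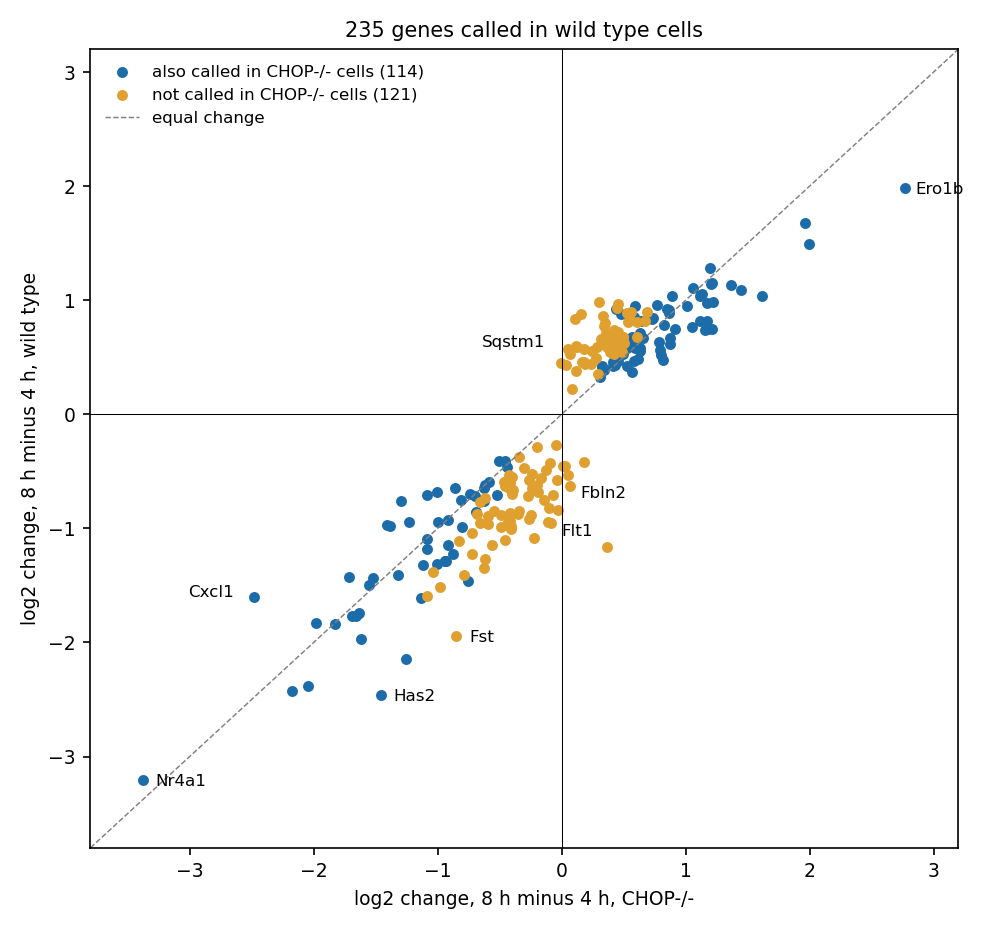
Log2 change between 4 h and 8 h of the 235 genes called in wild type cells, in wild type (y axis) and CHOP-/- cells (x axis), with blue for the 114 also called in CHOP-/- cells, orange for the others and a dashed line at equal change. All but 7 points lie in the lower left and upper right quadrants.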

How the data were processed

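The 24 arrays measured 12488 probe sets of a mouse expression array, of which 66 are controls. The deposited values are linear signal intensities per probe set, scaled to a common trimmed mean; software and scaling target: not given in the sources used here. Of the rest, 10833 probe sets carried 1 gene symbol, 396 several and 1193 none, and the platform annotation was matched to RefSeq for 10817. Signals plus 5.7 (their 20th percentile) were put on the log2 scale and quantile normalized, because array medians deviated by up to 0.27 and −0.27. Each of 8251 genes was represented by its probe set of highest mean, and 5691 genes with a mean above the 40th percentile (a signal of 27.7) were tested. Group means were fitted over all 24 arrays with limma 3.58.1 in R 4.3.3 (lmFit, eBayes with trend, 18 residual and 5.19 prior degrees of freedom), two-sided, with Benjamini-Hochberg adjustment over all genes. Every adjusted p printed is from such a limma fit. The fit was tested on simulated data. Their noise was independent between arrays, so that test does not cover arrays that go together by letter. Figures were drawn in Python 3.11.15 with matplotlib 3.10.9.

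Residuals of wild type arrays with the same letter correlated at 0.25 to 0.61 between 8 h and 4 h, 0.40 to 0.62 between 8 h and untreated cells and 0.31 to 0.55 between 4 h and untreated cells, so the letters were taken to pair the wild type arrays. Between 8 h and 4 h this did not single out letters A and B. The 8 h array A reached 0.2502 with its own letter and 0.2508 with another, and the 8 h array B 0.383 and 0.405. All blocked results for wild type cells rest on this pairing. In CHOP-/- cells these correlations were 0.03, −0.06, −0.13 and 0.31, and the arrays were not taken as paired. The pairing comes from these residuals, since the labels give the letter alone. Blocked counts stand beside those of the lists, and blocked p-values beside single genes described in the text whose calls they change.

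The gene lists, classes and the comparison itself were chosen with earlier results of these data known. Genes were named by rule: 13 stress genes, the 15 largest rises and falls among called genes without overlap, up to 6 per class and direction, up to 4 members per list by adjusted p, and called members against a list's median. Others named are members of a list that were called, or are said to be chosen after their values were seen. In all 27 other settings were tried, covering scaling, pseudocount, filter, probe sets, arrays fitted, blocks, array weights and arrays left out.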

Additional observations from a re-analysis of the deposited data

Results flagged for a closer look

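In 13 of 256 groups of 4 arrays (128 named genes at 8 h and 4 h), 1 array lay far from the other 3 on the normalized log2 scale; chance gives about 1 in 20 such groups. At 8 h these were array D for Edem2, with a signal of 516 (the others lay between 397.3 and 417.1), array D for Sec23b, with 1587 (1118 to 1169.5), array D for Cebpd, with 385.6 (633.8 to 694.2), array C for Sel1l, with 908.2 (1094 to 1101), and array B for Srp68, with 1548 (1692 to 1710.3). At 4 h, array D gave 452.3 for Nr4a1, where the others gave 982.6 to 1079, and 2765 for Sqstm1 (2220.3 to 2667). Array A gave 719.5 for Id1 (967.7 to 1009) and 176.4 for Mvd (222.7 to 261.4). Array B gave 41 for Elovl6 (60 to 89.9), 1244 for Smim14 (1065 to 1129) and 2695 for Manf (2165 to 2578), and array C gave 1302 for Sec11a (1455 to 1503).

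Outside the genes tested, 679 probe sets with no gene symbol or with several passed the same filter. Of these 18 were called between 4 h and 8 h, 14 higher and 4 lower, and they are not named.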

How the results depend on the processing

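The difference between genotypes stayed at 0 called genes in every setting that could fit it, and no named gene changed the sign of a called change: of 5202 values of named genes over 27 settings, 642 lost a call, 64 gained one and 0 reversed. Of 783 list medians 61 moved, and the medians of the NRF2, p53, interferon, proteasome, respiratory chain, leukocyte, epithelial and neural lists crossed 0 between settings. With arrays centred on their medians, 58 genes were lower, 0 reversed and 2 changed pace; with no normalization 1 reversed. With only the arrays of the groups compared, 108 genes were called, 49 higher and 59 lower, and 12 went on, 84 began late, 1 reversed and 52 held. With only the 12 wild type arrays 163 were called. With the letter as a replicate block over 24 arrays 5 reversed; with the letter within genotype, a setting chosen after seeing the data, 8 reversed and 39 changed pace. With the replicate block by letter in the 12 wild type arrays, also added afterwards, 640 genes were called, 305 higher and 335 lower, 234 of them among the 235, and 95 went on, 447 began late, 24 reversed, 187 held and 76 changed pace. With array weights 182 were higher, 36 went on, 8 reversed and 135 held. Without arrays A and B of every group, 8 genes were called, 4 higher and 4 lower, 1 went on, 7 began late, 0 reversed, 7 held and 1 changed pace. Without arrays C and D of every group, also added afterwards, 43 were called, 16 higher and 27 lower, 6 went on, 34 began late, 0 reversed, 43 held and 8 changed pace. Leaving out 1 wild type array gave 108 to 231 called genes, 56 to 121 higher and 52 to 115 lower, 11 to 19 that went on, 83 to 179 that began late, 0 to 3 that reversed, 44 to 92 that held and 6 to 20 that changed pace. Fewer arrays enter the fit in these settings; the cause of the other shifts was not tested. Signals near background limit the low genes, whose log2 changes are understated.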
